A study of Rattus norvegicus with 25 samples.

Results

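rno-miR-26a-5p and rno-miR-26b-5p are the mature guide strands of the rat miR-26 family. They were chosen by name, as the 2 rows carrying these names among the 764 mature miRNAs of the count table, and not by their values. Small RNA had been sequenced from mitochondria isolated from the red gastrocnemius, a hindlimb muscle of mainly oxidative fibres, of male Wistar-Kyoto rats. The rats were 5 weeks old when they were allocated. For 4 weeks, 13 of them (the trained group) did treadmill running, with 5 sessions each week, and 12 (the sedentary group) were placed for equal times on a belt that stood still. All 25 mitochondrial preparations, sedentary ones included, had been incubated with 312 µg RNase A for 1 h at 37 °C, an enzyme that digests RNA it can reach, before RNA was extracted. Names of libraries below give the group and the title's number. No library of whole muscle, or of mitochondria without RNase A, was among the 25, so a count does not show on which side of the organelle's membranes an RNA lay.

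miRNAs are short RNAs that guide Argonaute proteins to partly complementary sites in messenger RNAs, mostly through the seed at bases 2 to 8, and lower the output of those messages. miR-26a is widely expressed, rises as myoblasts differentiate, and is known to repress Ezh2, a histone methyltransferase that holds muscle genes silent, and the Smad proteins of TGF-β and BMP signalling. Its paralog miR-26b carries the same seed. The miR-26 precursors are described as lying in introns of the Ctdsp genes, which encode small phosphatases that act on the C-terminal domain of RNA polymerase II.

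The mature sequences are shown because both the shared targets and the way reads can be told apart rest on them. They are RefSeq's, on the rat assembly GRCr8, with the seed in capitals.
miR-26a-5p: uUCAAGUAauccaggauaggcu
miR-26b-5p: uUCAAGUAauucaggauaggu
Counted from 1 at the 5′ end of miR-26a-5p, and with the base of miR-26a-5p first, the paralogs differ by C11U and C21U, and miR-26a-5p is 22 bases long against 21. Over the 21 positions both have, 19 are identical, and the first 10 bases do not differ. The same sequences are given again with the differing bases in capitals.
miR-26a-5p: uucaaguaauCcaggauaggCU
miR-26b-5p: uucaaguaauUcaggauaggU
A read that stops before position 11 could not be assigned to either, and within the first 20 bases a single base separates them. The handling of reads matching both was not given in the sources used here. Of the 693 mature rat entries in the RefSeq table, 2 carry this seed, and both are rows of the counts.

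The precursor hairpins are shown with the 5p arm in capitals, since the other arm was without a count in the deposited values. Mir26a is at chr8:127633048-127633137 and Mir26b at chr9:83425709-83425793 on GRCr8, both on the plus strand. The assembly behind the counts themselves was not given in the sources used here.
Mir26a: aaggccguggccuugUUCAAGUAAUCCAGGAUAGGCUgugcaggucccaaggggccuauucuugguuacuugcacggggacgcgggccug
Mir26b: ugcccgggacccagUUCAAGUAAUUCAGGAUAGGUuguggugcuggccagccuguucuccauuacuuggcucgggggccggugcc
In the RefSeq gene table each precursor lies within the span of 1 protein-coding gene on the same strand, Mir26a within Ctdspl and Mir26b within Ctdsp1. The passenger strands miR-26a-3p and miR-26b-3p were at 0 in every library. Against the 2094773 counts of all libraries this sets a limit of 1.43 CPM (CPM is the count scaled to the library's total). Any filtering of rows before deposit was not given, so these 0 values describe the table. This limit, and the limits and intervals below, cover counting error only and take each read as independent. The reads carry no molecular identifiers, so copies made in the 20 PCR cycles cannot be told apart, and these limits and intervals can be too narrow.

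Total counts per library ranged from 12181 to 202388. These totals, and all CPM and percentages, include every row, also rows with nearly the same counts, such as miR-1-3p and miR-3571. Reads placed in several such rows can enter a total repeatedly, to an extent that was not measured and can differ between libraries. Trained totals separated by title number. Trained libraries numbered 1 to 13 had 26793 to 43510 counts and those numbered 14 and above 72553 to 202388, while the sedentary ranges, 30527 to 186006 and 12181 to 106661, overlapped. Sedentary library 19, with 12181 counts, was the only library under 0.25 of the median total. As a check of the tissue, skeletal muscle markers summed to 109901 to 271093 CPM in trained and 91475 to 324808 CPM in sedentary libraries, with miR-208b-3p at 0. Red cell markers (miR-451-5p and both arms of miR-144) were at 0 in all libraries. Leukocyte markers reached at most 2381 CPM, and 3 of the 5 were at 0 (miR-155-5p, miR-142-3p and miR-223-3p). The liver marker miR-122-5p reached 5598 CPM. As for the passenger strands, the 0 values of markers describe the table and do not show that a cell type was absent. In bulk RNA, fewer cells of a type and less RNA per cell cannot be told apart.

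miR-26a-5p was present in every library and was among the more abundant miRNAs of the table, in which 260 rows had a count. It had 17019 counts in all, from 34 in sedentary library 19 to 2120 in sedentary library 7. Its level was 7771 ± 4429 CPM (SD, n = 25), or 0.777% ± 0.443 of counts, which placed it at position 22 of the 764 rows by mean level. With near-identical rows counted once it was at position 19. Within single libraries its position ran from 16 in sedentary library 32 to 58 in sedentary library 4. Its neighbours in this order did not stand clear of it: miR-26a-5p was the higher in 8 of 25 libraries against miR-320-3p (10694 ± 5754 CPM, SD, n = 25), in 12 of 25 against miR-10b-5p, in 15 of 25 against miR-10a-5p and in 15 of 25 against miR-30d-5p (6896 ± 3438 CPM, SD, n = 25).

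miR-26b-5p, with 301 counts in all, was at position 122 by mean level. It had a count in 17 of 25 libraries and 10 or more counts in 6. In trained libraries these were library 2 with 18 counts (504 CPM), library 5 with 14 (360 CPM) and library 6 with 25 (929 CPM). In sedentary libraries they were library 7 with 113 (608 CPM), library 15 with 36 (573 CPM) and library 29 with 69 (907 CPM). The other 19 libraries had 0 to 6 counts, so that no library lay between 6 and 14. The 6 libraries held 91.4% of all miR-26b-5p counts, against 24% for an even split. miR-26a-5p had 58.4% of its counts in its own 6 highest libraries.

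**Figure D1:**
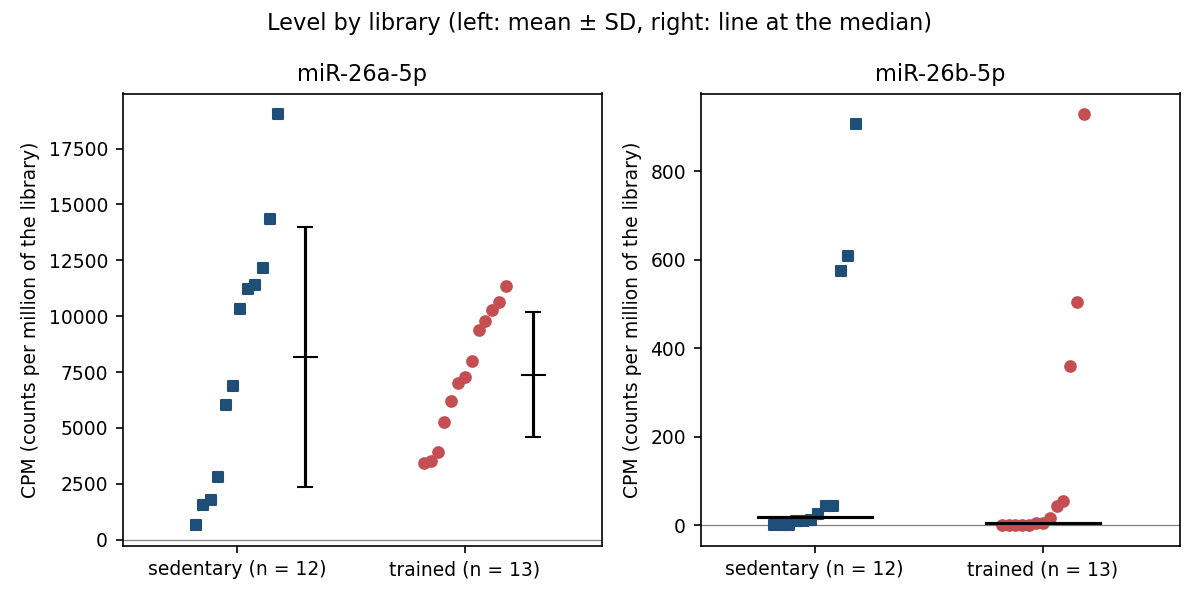
Level of miR-26a-5p (left) and miR-26b-5p (right) in CPM for each library, with 12 sedentary libraries as squares and 13 trained as circles. Bars on the left are the mean ± SD and lines on the right the median. Trained libraries span 3419 to 11371 CPM of miR-26a-5p and sedentary libraries 653 to 19043, while miR-26b-5p lies near 0 in most libraries and at 360 CPM or more in 3 libraries of each group.

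The libraries differed in how low a level of miR-26b-5p they could show. The 8 libraries with 0 counts had totals of 12181 to 156744, and a count of 0 allowed up to 19.1 CPM in the deepest of them (trained library 25) and 246 CPM in the shallowest. The 11 libraries with 1 to 6 counts had totals of 69854 to 202388 and levels of 4.94 to 55.1 CPM. Totals of the 6 libraries with 10 or more counts were 26906 to 186006, so the ranges of totals overlap while the levels do not. Most rows of similar total were more concentrated still. Among the 62 rows with 152 to 590 counts, miR-26b-5p included, the share of counts in a row's own 6 highest libraries had a median of 99.2% (lowest 75.6%, highest 100%), and 11 rows were less concentrated than miR-26b-5p. These rows had a count in a median of 9 libraries.

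The balance of the paralogs lay far on the side of miR-26a-5p. Summed over all libraries there were 56.5 reads of miR-26a-5p for each read of miR-26b-5p, and miR-26b-5p held 1.74% of the pair's counts (95% exact Clopper-Pearson interval 1.55 to 1.94). Single libraries departed from this by more than the counting error of reads taken as independent. In sedentary library 32, 1801 counts of miR-26a-5p stood beside 4 of miR-26b-5p, a share of 0.222% for miR-26b-5p (interval 0.0604 to 0.566). In sedentary library 7, with a similar 2120 counts of miR-26a-5p, there were 113, a share of 5.06% (interval 4.19 to 6.05). Sedentary library 29 had 523 and 69 counts, 11.7% (interval 9.18 to 14.5), and trained library 6 had 263 and 25, 8.68% (interval 5.70 to 12.5). At the far end was sedentary library 15, with 41 counts of miR-26a-5p and 36 of miR-26b-5p, so that miR-26b-5p held 46.8% (interval 35.3 to 58.5). That library had the lowest miR-26a-5p level of all, 653 CPM, while its miR-26b-5p level of 573 CPM was close to that of sedentary library 7. Summed by group, miR-26b-5p held 0.909% of the pair in trained libraries (interval 0.710 to 1.14) and 2.42% in sedentary libraries (interval 2.12 to 2.75), intervals that leave out the spread between rats.

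**Figure D2:**
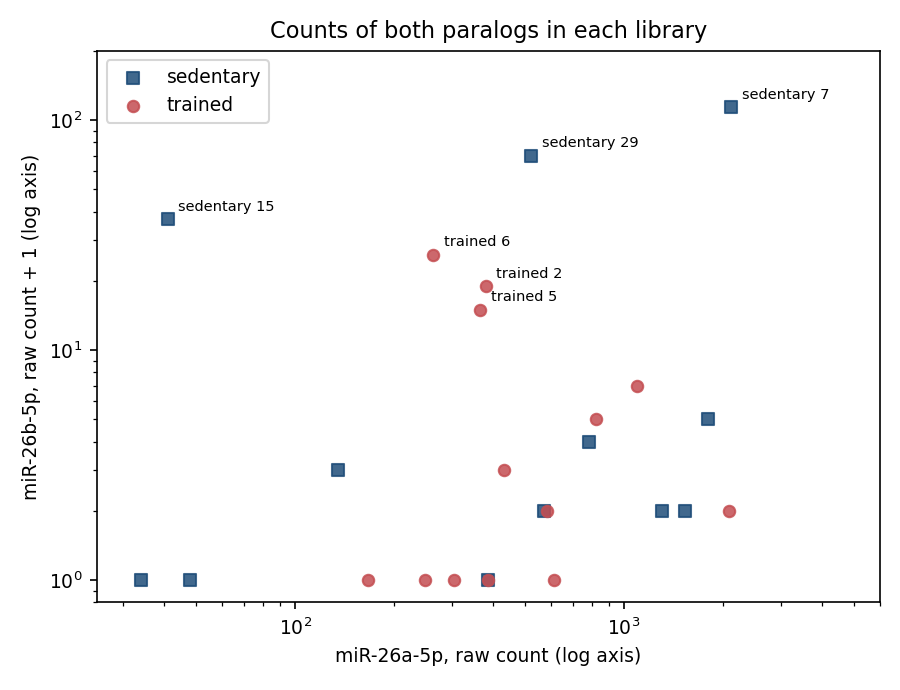
Raw counts of miR-26a-5p (horizontal, log axis) against raw counts of miR-26b-5p plus 1 (vertical, log axis), 1 point per library. The 6 named libraries have 14 to 113 counts of miR-26b-5p and lie apart from the other 19, which have 0 to 6, over the whole range of miR-26a-5p counts.

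Across libraries the levels of the paralogs were not shown to move together. On the log2(CPM + 10) scale Pearson's r was 0.086 (permutation test, p = 0.687) and Spearman's rho 0.297 (permutation test, p = 0.147), with adjusted p = 0.958 and 0.485 over 4 relations. Without the 2 libraries farthest from the median of miR-26a-5p (sedentary 4 and 15), r was 0.327 and rho 0.376. The rank correlation was 0.577 within trained and 0.099 within sedentary libraries, and 0.534 at title numbers 1 to 13 and 0.114 at 14 and above. The difference between these values was not tested. Relations to the library total were also short of the threshold. The rank correlation of the log2 total was 0.190 with miR-26a-5p, 0.145 with miR-26b-5p and -0.169 with the share of miR-26a-5p in the pair (permutation tests, adjusted p = 0.485 for each, with r of 0.163, 0.011 and 0.049 and adjusted p = 0.958 for each). Without the 2 totals farthest from the median (trained 27 and sedentary 19), r was 0.026, -0.049 and 0.078. For miR-26a-5p, rho with the total was -0.291 within trained libraries (permutation test, p = 0.335, adjusted p = 0.659). Within sedentary libraries it was 0.692 (permutation test, p = 0.0158, adjusted p = 0.0633). In the lower and upper range of title numbers it was 0.378 and 0.082. On CPM scaled with TMM factors, the scaling of the main fit below, it was 0.399 over all libraries (permutation test, p = 0.0496, adjusted p = 0.199).

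Training was the comparison the study was built on. miR-26a-5p had a lowest, median and highest level of 3419, 7292 and 11371 CPM in trained libraries, and of 653, 8606 and 19043 CPM in sedentary libraries. The means were 7390 ± 2799 CPM (SD, n = 13) and 8184 ± 5822 CPM (SD, n = 12). The groups overlapped, with the sedentary libraries reaching beyond the trained ones at both ends on this scale. On TMM-scaled CPM they did so at the lower end only (highest 11100 in sedentary and 14990 in trained libraries). The log2 fold change, trained minus sedentary, was 0.21 (SE 0.37, 95% interval -0.54 to 0.96, edgeR quasi-likelihood test, p = 0.572, adjusted p = 0.971). In linear terms the interval runs from 0.689-fold to 1.95-fold, so changes within it cannot be told from none in these libraries. None of the 76 miRNAs tested passed at an adjusted p under 0.05 (0%), and 1 had an unadjusted p under 0.05. DESeq2 and limma-voom also called 0, with 8 of 260 and 14 of 76 at an unadjusted p under 0.05.

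The sign of the miR-26a-5p value depended on the scaling. With TMM factors, which scale each library to the bulk of its miRNAs, it was 0.21, and with total counts alone it was -0.15, which is also the order of the mean CPM. That change of scale moved the median of all tested miRNAs from -0.0081 to -0.29, and relative to the median miR-26a-5p was at 0.22 and 0.14. DESeq2's size factors moved the median to -0.16 and put miR-26a-5p at 0.054. On the authors' normalized values trained libraries averaged 451 ± 114 (SD, n = 13) and sedentary libraries 434 ± 295 (SD, n = 12). At title numbers 1 to 13 the log2 fold change was 0.15 (SE 0.46, edgeR adjusted p = 0.996), and at 14 and above it was 0.22 (SE 0.59, edgeR adjusted p = 0.944).

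miR-26b-5p did not pass the filter on low counts and was not among the 76. Its lowest, median and highest level was 0, 5.87 and 929 CPM in trained and 0, 18.4 and 907 CPM in sedentary libraries. Libraries with 10 or more counts numbered 3 of 13 in the trained and 3 of 12 in the sedentary group (Fisher's exact test, two-sided, p = 1). Over the 215 rows for which this could be tested, 0% passed after adjustment. In a fit without a filter, from which no call is made, its log2 fold change was -0.44 (SE 1.55, 95% interval -3.50 to 2.62, edgeR adjusted p = 0.906). The value was 1.15 (SE 2.33) at title numbers 1 to 13 and -3.46 (SE 2.69) at 14 and above, where 0 of 7 trained and 2 of 6 sedentary libraries had 10 or more counts. It was -2.08 with upper quartile scaling, -1.54 with the log2 total and -1.36 with the title number as a covariate, 0.097 with DESeq2, and 0.16 without sedentary library 29.

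The share of miR-26a-5p in the pair averaged 98.6% ± 2.64 over trained (SD, n = 13) and 94.5% ± 13.4 over sedentary libraries (SD, n = 12), with medians of 99.8% in each. The difference of 4.06 percentage points was within the spread between libraries (permutation test, two-sided, p = 0.360, with 0.720 after adjustment over 4 tests), and it rested on sedentary library 15, without which it was 0.305. Within title numbers 1 to 13 it was -1.62 (exact permutation test, p = 0.424) and within 14 and above 9.54 (exact permutation test, p = 0.166).

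The sedentary libraries covered the wider range of miR-26a-5p. 4 sedentary libraries lay below the lowest trained library (4, 12, 15 and 19, at 1572, 1766, 653 and 2791 CPM), 4 lay above the highest (3, 7, 30 and 32, at 12176, 11397, 14335 and 19043 CPM), and 4 lay within the trained range. On the authors' normalized values 4 lay below and 1 above, and on TMM-scaled CPM 4 below and 0 above. The coefficient of variation was 71.1% in sedentary and 37.9% in trained libraries, against a counting error of 2.17% to 17.1% per library. The mean absolute deviation from the group's own median, on the log2(CPM + 10) scale, was 1.19 ± 1.08 in sedentary (SD, n = 12) and 0.49 ± 0.35 in trained libraries (SD, n = 13). The difference of -0.70 had an unadjusted p under the threshold (two-sided permutation test, p = 0.0292) but did not pass over the 76 miRNAs tested (adjusted p = 0.370), nor over the 4 tests of the pair (adjusted p = 0.117). Of the 76, 9.21% had an unadjusted p under 0.05 for spread, counting both directions, and 1.32% passed after adjustment, a single miRNA (miR-100-5p). Among those under 0.05, miR-351-5p, miR-28-3p, miR-125a-5p and miR-541-5p were wider in trained libraries. miR-26a-5p, miR-100-5p and miR-199a-3p were wider in sedentary libraries. The number passing after adjustment was 0 without sedentary library 8, 12, 15, 16, 19 or 29 or trained library 14 or 17. It was 2 to 4 without trained library 1, 2, 5, 6, 10, 13, 25, 26 or 27. miR-26a-5p did not pass with any single library left out. Spread was larger in sedentary libraries for 40 of the 76, and 7 had a difference further in that direction than miR-26a-5p. Without sedentary library 15 the difference for miR-26a-5p was -0.45. It was -0.64 without sedentary library 19 (permutation test, p = 0.118) and -0.63 on TMM-scaled CPM (permutation test, p = 0.0599). With log2(CPM + 1), thinned counts and the authors' normalized values it was -0.70, -0.82 and -0.76 (permutation tests, p = 0.0293, 0.0248 and 0.00644). In none of these settings did it pass over the 76. At title numbers 1 to 13, a range set with the library totals known, it was -0.82 and passed, as 1 of 4 miRNAs that did (exact permutation test, p = 0.00216, adjusted p = 0.0411), and at 14 and above it was -0.68 and did not (exact permutation test, p = 0.185, adjusted p = 0.780). With 6 libraries in each group, p = 0.00216 is the lowest value the exact permutation test can give. Passing at title numbers 1 to 13 therefore depended on how many of the 76 rows reached that value, near-identical rows included. For miR-26b-5p the spread was 1.80 in trained and 1.84 in sedentary libraries (permutation test, p = 0.955). Its difference, trained minus sedentary, was 1.54 at title numbers 1 to 13 and -1.45 at 14 and above.

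**Figure D3:**
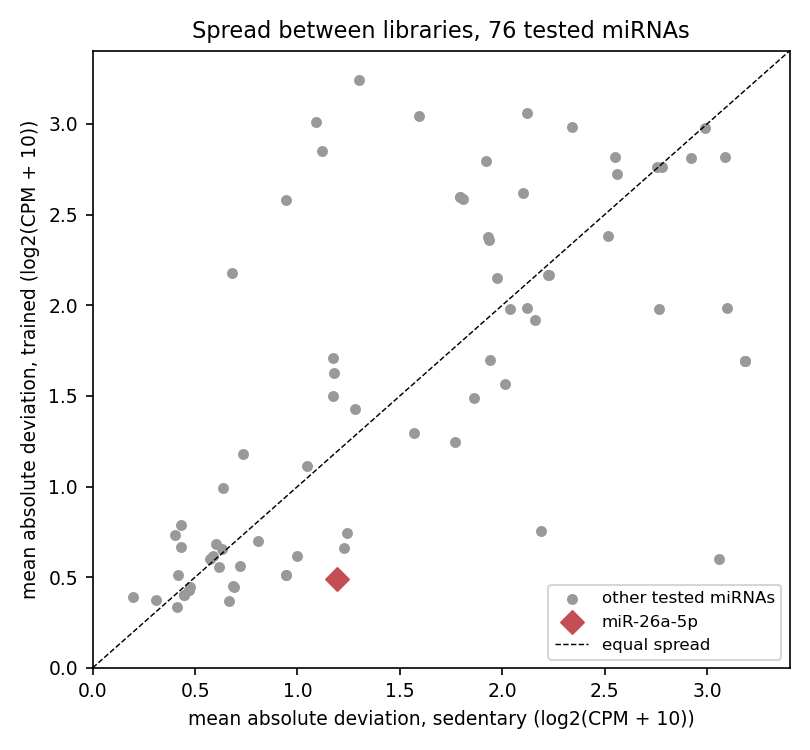
Mean absolute deviation from the group median of log2(CPM + 10) in sedentary (horizontal) and trained libraries (vertical) for each of the 76 tested miRNAs, with a dashed line of equal spread. miR-26a-5p, the diamond, is at 1.19 and 0.49, and 7 miRNAs have a difference further towards the sedentary side. Near-identical rows are drawn and counted separately.

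Over all 25 libraries miR-26a-5p varied less than most. Its coefficient of variation of 57.0% was exceeded by all but 22 of the 76 tested miRNAs (lowest 28.8%, median 86.6%, highest 188%). Among the 40 most abundant of them, with near-identical rows counted once, 18 varied less and the median was 60.7%. The biological coefficient of variation that edgeR fitted for it was 0.812, against a median of 1.19.

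**Figure D4:**
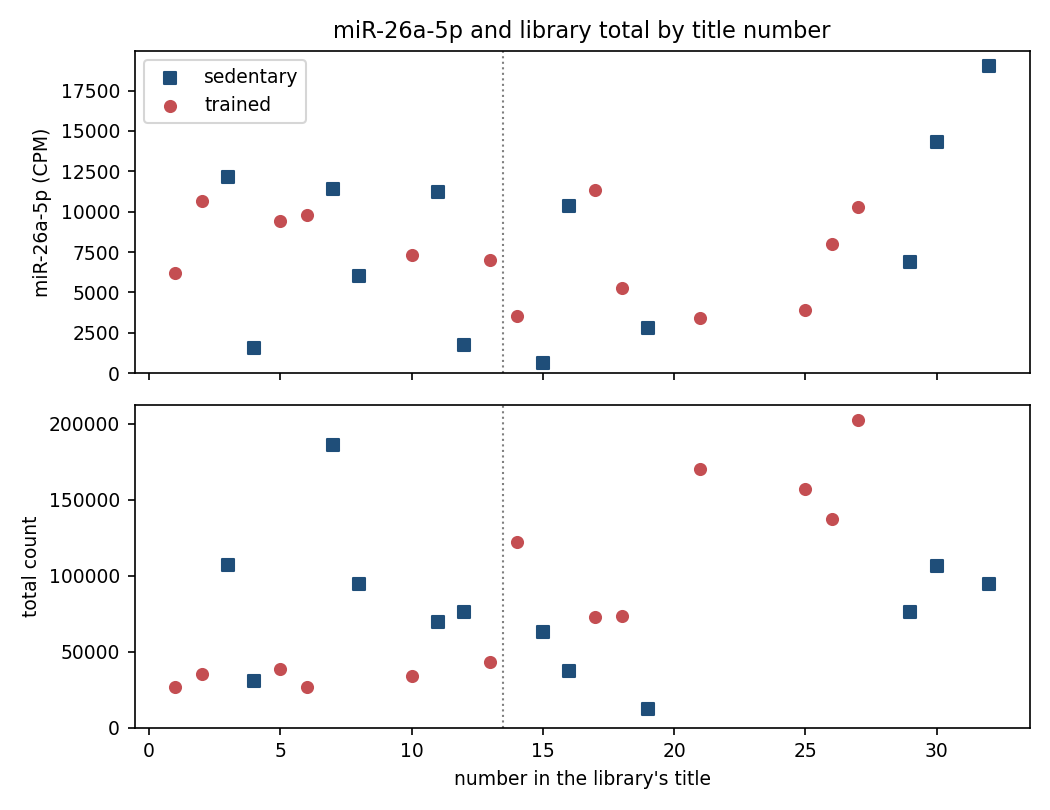
Level of miR-26a-5p in CPM (top) and total count of the library (bottom) by the number in the library's title, for 12 sedentary (squares) and 13 trained libraries (circles). The dotted line parts numbers 1 to 13 from 14 and above. Trained totals are 26793 to 43510 left of it and 72553 to 202388 right of it, and low and high miR-26a-5p values of sedentary libraries occur on both sides.

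The miRNAs most like miR-26a-5p across the 25 libraries were miR-30d-5p (Spearman's rho 0.607), let-7e-5p (0.553) and miR-24-3p (0.544), against a median rho of 0.251 over 67 other tested miRNAs. On TMM-scaled levels these values were 0.070, 0.457 and 0.542, so that for miR-30d-5p the likeness depended on the scaling, and miR-24-3p was first. For miR-26b-5p they were miR-379-5p (0.593, and 0.552 on TMM-scaled levels), miR-152-3p (0.377 and 0.279) and miR-30a-5p (0.366 and 0.344), against a median of 0.064. All levels of 1 library share its total, and these are descriptions. The lowest rho with miR-26a-5p was that of miR-206-3p (-0.476) and then miR-1-3p (-0.414), the abundant miRNAs of muscle fibres, and it was -0.221 and -0.092 on TMM-scaled levels.

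Because of this order, the level of miR-26a-5p was set beside the marker lists, a choice made after the values were seen. The skeletal muscle sum is mostly miR-1-3p and miR-206-3p (means of 106248 and 75615 CPM, against 2374 CPM for miR-133a-3p). The endothelial marker miR-126a-3p was itself among the miRNAs ranked. The p-values below therefore restate in part the ranking that led to them, and are descriptions. It was higher where the endothelial marker miR-126a-3p was higher, with Pearson's r of 0.537 (permutation test, p = 0.00549, adjusted p = 0.0165) and rho of 0.523 (permutation test, p = 0.00810, adjusted p = 0.0238 over 3 relations). The other arm, miR-126a-5p, was at 0. miR-126a-3p is also on the list, used below, of miRNAs described in mitochondria. Without trained library 10 and sedentary library 30, the farthest from the median, r was 0.599. The rank correlation was 0.482 on TMM-scaled levels. It was 0.748 within sedentary and 0.209 within trained libraries, and 0.189 at title numbers 1 to 13 and 0.813 at 14 and above, so its size varied between these subsets, and the difference between them was not tested. The range of miR-126a-3p was 2490 to 18001 CPM in sedentary and 1523 to 8548 CPM in trained libraries. With the smooth muscle markers miR-143-3p and miR-145-5p, which summed to 8284 to 54853 CPM in sedentary and 8054 to 34139 CPM in trained libraries, rho was 0.410 (permutation test, p = 0.0435, adjusted p = 0.0435) and r 0.332 (permutation test, p = 0.104, adjusted p = 0.119). It was 0.353 (r) without sedentary library 29 and trained library 21, and rho fell to 0.085 on TMM-scaled levels. The rank correlation was 0.104 within trained, 0.566 within sedentary libraries, and 0.231 and 0.582 in the lower and upper range of title numbers. With the skeletal muscle markers rho was -0.482 (permutation test, p = 0.0159, adjusted p = 0.0238), r was -0.320 (permutation test, p = 0.119, adjusted p = 0.119), and r without sedentary libraries 3 and 29 was -0.311. The rank correlation was -0.527 within trained and -0.476 within sedentary libraries, -0.385 and -0.604 in the 2 ranges of title numbers, and -0.166 on TMM-scaled levels. The part that other cells in the preparations have in the miR-26a-5p level was not tested.

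**Figure D5:**
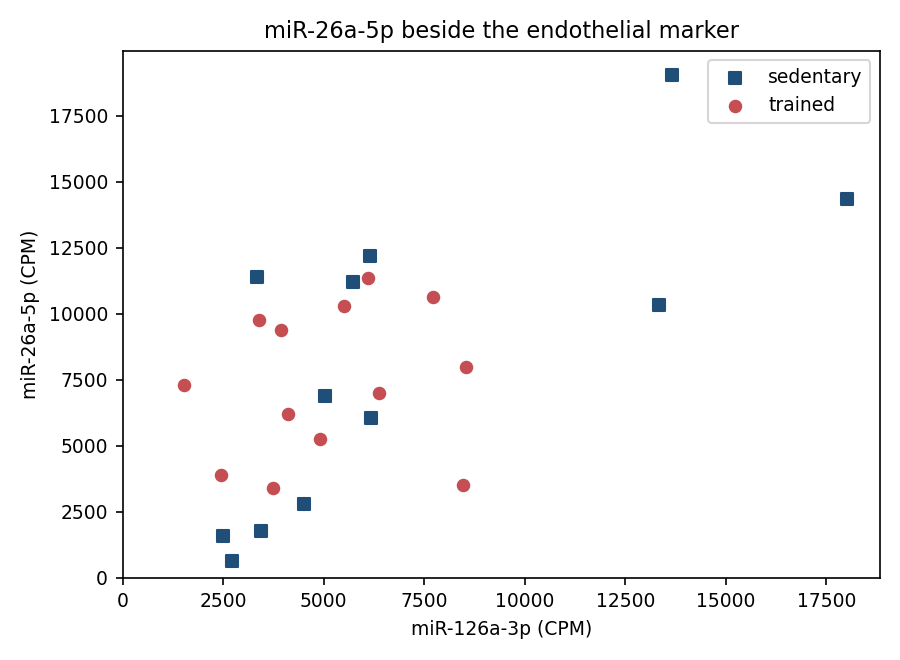
Level of miR-26a-5p (vertical, CPM) against that of miR-126a-3p (horizontal, CPM), 1 point per library, with sedentary libraries as squares and trained as circles. Sedentary libraries run from low values of both to the 2 highest values of miR-26a-5p, 14335 and 19043 CPM, at 18001 and 13651 CPM of miR-126a-3p, and trained libraries form a cloud between 1523 and 8548 CPM of miR-126a-3p.

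Other miRNAs of processes in which miR-26a is known were also not called. Of 27 miRNAs listed for myogenic differentiation, counts were found for 22 and 13 entered the test, of which 9 had positive and 4 negative values and 0 passed (median 0.16, lowest edgeR adjusted p = 0.916). The 4 most abundant were miR-1-3p at 0.60 (SE 0.36) and miR-206-3p at 0.30 (SE 0.38), which drive myoblast differentiation, miR-378a-3p at 0.025 (SE 0.30) from the PGC-1β gene, and miR-148a-3p at 0.82 (SE 0.32). With total counts alone 5 were positive and 8 negative, and with DESeq2 size factors 6 and 7. Of 21 miRNAs listed as described in mitochondria, counts were found for 16 and 14 entered the test, with 7 values above 0, 7 below and 0 passing (median -0.016, lowest edgeR adjusted p = 0.916). The lists share 7 miRNAs, all 7 tested (miR-1-3p, miR-206-3p, miR-378a-3p, miR-133a-3p, miR-133b-3p, miR-24-3p and miR-146a-5p), so their counts are not independent. Members within a list are not all independent either. miR-133a-3p and miR-133b-3p, both with positive values, are near-identical rows and were counted separately in each list. The second list also holds miR-103-3p and miR-107-3p, of similar total (3069 and 3045 counts) and both negative. In the second, let-7b-5p was at 0.0075 (SE 0.31). With total counts alone 3 were positive and 11 negative. Both lists were drawn up with results of these data known, and the median over all 76 was -0.0081, with 37 positive and 39 negative.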

How the data were processed

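The authors deposited raw counts, whole numbers per mature miRNA in 25 libraries, with empty cells read as 0, and normalized values. The normalized signal the authors deposited is each raw count over 1 factor per library (relative deviation at most 1.59e-09). Per the submitters' processing notes, fastp 0.20.0 and DESeq2 1.36 were used. Aligner, counting tool, strand setting, annotation and build were not given in the sources used here. Per the labels' protocols, mitochondria came from about 100 mg of muscle with a kit made for mouse, adapters were diluted to 0.3, and 20 PCR cycles were run.

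Groups came from the titles. That each library is 1 rat follows from the stated group sizes. Litter and batch are not in the labels, so p-values measure the spread between these libraries. Counts were tested with edgeR 4.0.16 (quasi-likelihood, TMM, filterByExpr with minimum count 10 and total 15, R 4.3.3), which kept 76 rows, 96.9% to 99.0% of counts, with Benjamini-Hochberg adjustment and a threshold of 0.05. miR-26b-5p came from the same fit without a filter (rows with at least 1 count). Shares and spread were tested with two-sided permutations (100000 resamples, all labelings where fewer than 10 libraries were in a group), detection at 10 counts with Fisher's exact test (scipy 1.17.1), on log2(CPM + 10) where levels are logged. Scripts were tested on simulated data. Rows of 100 or more counts were taken as near-identical when within 10% wherever their sum reached 10 counts, in at least 3 libraries. Alternatives were DESeq2 1.42.0, limma 3.58.1 (voom, and trend on the normalized values), other scalings, filters, covariates, ranges of title numbers, thinned counts and leaving out each library. Marker relations, spread on the normalized values, and spread, detection and correlations by title number, were added after seeing the data. miRNAs named beside the members were the 3p arms, rows with the same seed, the 3 highest Spearman rho per member, and, per list, the 4 tested miRNAs of highest mean CPM. miR-100-5p and the other miRNAs named for spread, the low ends of the rho order and the neighbours in abundance were named after their values were seen. The members and lists were chosen with earlier results of these data known. Sequences were matched by name in RefSeq tables of GRCr8 (687 of 764 rows).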

Additional observations from a re-analysis of the deposited data

How the results depend on the processing

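No paired analysis was possible because trained and sedentary libraries share no number in their titles. Calls for spread numbered 1, against 0 with TMM-scaled CPM, with the authors' normalized values and without sedentary 19, 4 at title numbers 1 to 13, and 0 to 4 without a library. Calls of miRNAs stayed at 0 in 15 of 16 other settings and in all 25 without a library, the exception being 66 calls without a filter on low counts, where miR-26a-5p was at 0.10 and not called. miR-26a-5p was at -0.15 with total counts only, at 0.050 to 0.48 in the 15 other settings, and at 0.063 to 0.35 without a library. miR-26b-5p was at -3.46 at title numbers 14 and above and at -1.22 to 0.16 without a library. The difference in the share of the pair was -1.62 percentage points at title numbers 1 to 13 and 0.305 to 4.66 without a library. The spread difference of miR-26a-5p was -0.82 and past the threshold at title numbers 1 to 13, and -0.75 to -0.45 without a library (unadjusted p 0.00973 to 0.146). That of miR-26b-5p was 0.29 with log2(CPM + 1), 0.47 with thinned counts, and -0.38 to 0.29 without a library. At title numbers 1 to 13 it was 1.54 (exact permutation test, unadjusted p = 0.0498), and at 14 and above -1.45 (exact permutation test, unadjusted p = 0.0740). The share of libraries with 10 or more counts of miR-26b-5p differed by 12.8 percentage points with thinned counts at 1 or more, by 33.3 at title numbers 1 to 13, by -33.3 at 14 and above, by -13.5 at 1 or more counts, by -25 at 30 or more counts (0 of 13 against 3 of 12, Fisher's exact test, p = 0.0957), and by -8.33 to 4.90 without a library, against -1.92. Spearman's rho without a library was 0.246 to 0.429 for the pair, 0.107 to 0.259 for miR-26a-5p with the total, 0.055 to 0.261 for miR-26b-5p with the total, and -0.272 to -0.082 for the share with the total. Within trained libraries the last 3 were -0.291, -0.153 and 0.136, and miR-26b-5p with the total was -0.020 at title numbers 14 and above. The cause of these changes was not tested. A count of 0 for miR-26b-5p allowed 19.1 to 246 CPM, depending on the library's total.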
